A study of Mus musculus with 26 samples.

Results

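The genes described here encode the subunits of respiratory chain complexes I, III and IV and of ATP synthase, with the assembly factors of complex I. They were examined in RAW264.7, a macrophage-like line from mouse. Members were chosen by name: protein-coding mm10 RefSeq genes on the autosomes and X whose symbol begins with Nduf, Uqcr, Cox4, Cox5, Cox6, Cox7, Cox8 or Atp5. This gave 92 of 21631 genes: 40 complex I subunits, 8 complex I assembly factors, 8 complex III subunits, 11 complex IV subunits, 17 ATP synthase subunits and 8 tissue-restricted isoforms. Roles follow the symbols, so Ndufa4, now placed in complex IV, is counted with complex I throughout. The cells were stable lines with doxycycline-inducible HA-tagged Nur77 or, as the control, doxycycline-inducible GFP. All groups of both lines had received 50 ng/ml doxycycline for 18 h, so Nur77 was overexpressed and no uninduced library was analysed here. Within each line, cells were untreated or had received 500 ng/ml lipopolysaccharide (LPS, a bacterial cell wall component that activates macrophages) for 1 h. Chromatin was immunoprecipitated for RNA polymerase II (Pol II) and for acetylated lysine 27 of histone H3 (H3K27ac) in both lines, 2 libraries per group, and for the HA tag in the Nur77 line, 3 libraries per group. Chromatin for HA was cross-linked with DSG and formaldehyde, that for the other targets with formaldehyde alone. An HA library of the GFP line was not analysed here, so HA peaks have no matched background, and regions enriched in the input chromatin lay over 18 of the 92 members (19.6%) and over 26.4% of all genes. The labels name the lines but neither their number of clones nor the culture behind each replicate, so p-values measure only the spread between these libraries.

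Mapped tags numbered 11.9 to 23.1 M in the Pol II libraries, 22.3 to 28.4 M in the H3K27ac libraries and 6.41 to 18.2 M in the HA libraries. The share of tags in peaks was 53.5 to 64.9%, 47.5 to 59.5% and 7.54 to 17.0%. All 8 macrophage marker genes examined had Pol II and H3K27ac peaks in every library, with summed Pol II tags of 14780 to 23556, and the T cell, hepatocyte and fibroblast markers had none. Of the other lineages, 1 of 3 B cell markers had Pol II peaks in every library (summed tags 263 to 344), 0 of 3 epithelial markers did (2 of 3 for H3K27ac) and 1 of 2 neural markers did (52.2 to 266). Epcam, an epithelial marker, and Snap25, a neural one, had no peak. The neural marker with peaks, Gfap, was higher after LPS for Pol II in Nur77 cells (1.18, adjusted p = 0.0148) and higher for H3K27ac in Nur77 than in GFP cells (0.79 untreated and 0.96 after LPS, adjusted p = 0.000808 and 0.000303), and its part in the results below was not tested. LPS raised Pol II over all 5 tested LPS-induced genes in both lines, with Tnf, the gene of an inflammatory cytokine, at log2 changes of 3.65 and 3.14 (limma, adjusted p = 0.000555 and 0.000638). The Pol II library of untreated Nur77 replicate 1 had an estimated fragment length of 1550 bp, against 174 to 318 bp in the other 7. The HA replicate 3 libraries had narrower peaks (342 and 427 bp) than the others (826 to 1017 bp).

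The respiratory chain passes electrons from NADH through complex I, ubiquinone, complex III and cytochrome c to complex IV, which reduces oxygen. The proton gradient built by this flow drives ATP synthase. Most subunits are encoded in the nucleus and are transcribed in nearly all cells from CpG-rich promoters, at which the factors NRF1, the ETS protein GABP and YY1 are well known to act. In macrophages, LPS shifts metabolism from respiration toward glycolysis. Nur77 (gene Nr4a1) is an orphan nuclear receptor of the NR4A family that binds the NBRE element and is itself induced by inflammatory stimuli.

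The values below are tags in HOMER peaks. For each target and library, the normalized tag counts of all peaks that overlap a gene's span plus 1 kb on each side were summed and divided by a scaling factor between libraries, giving scaled tags. Pol II and H3K27ac peaks are regions stitched from neighbouring enriched windows, so a region can reach over several genes and is then counted for each. Of the 85 members tested for Pol II, 60 shared a peak with at least 1 other gene, as did 50 of 85 for H3K27ac and 9 of 19 for HA. For the larger changes over shared peaks, the same change for the part of each peak inside the gene's window is therefore given as the inside-window change. That part is the peak's tags times the share of its length inside the window. Tags are thus taken as even along each peak, and the value does not locate them within it. Groups were compared with limma on log2(scaled tags + 1), fitted over all genes with a peak in every library of the target, with Benjamini-Hochberg adjustment and a false discovery rate of 0.05.

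Promoter sequences (RefSeq, GRCm38.p6) were matched for 75 of the 92 members. The 5 promoters below belong to members whose start site lay inside an HA peak in all 6 HA libraries. They run from 250 bases before the start to 30 after it, read 5′ to 3′ along the gene, and capitals mark the searched motifs other than GGGCGG and the half-site.
Atp5c1 (chr2:10080481-10080760, minus strand): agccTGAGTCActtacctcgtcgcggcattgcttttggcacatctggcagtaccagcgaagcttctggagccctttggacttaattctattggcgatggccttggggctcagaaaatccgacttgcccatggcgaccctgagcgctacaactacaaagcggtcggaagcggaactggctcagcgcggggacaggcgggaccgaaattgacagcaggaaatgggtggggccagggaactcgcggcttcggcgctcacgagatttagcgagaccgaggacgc
Atp5g3 (chr2:73911297-73911576, minus strand): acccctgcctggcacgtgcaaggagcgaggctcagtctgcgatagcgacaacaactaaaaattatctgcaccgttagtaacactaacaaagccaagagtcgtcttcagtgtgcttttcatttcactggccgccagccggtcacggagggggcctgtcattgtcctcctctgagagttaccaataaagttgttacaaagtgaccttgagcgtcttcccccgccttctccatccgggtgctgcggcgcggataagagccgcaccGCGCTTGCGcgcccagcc
Atp5e (chr2:174464072-174464351, minus strand): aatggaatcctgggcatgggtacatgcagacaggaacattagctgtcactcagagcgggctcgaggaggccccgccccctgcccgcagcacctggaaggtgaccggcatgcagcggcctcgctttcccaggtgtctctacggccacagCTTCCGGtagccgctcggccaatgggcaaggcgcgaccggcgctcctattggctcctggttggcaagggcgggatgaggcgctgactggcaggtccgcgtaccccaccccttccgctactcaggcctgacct
Uqcrfs1 (chr13:30545287-30545566, minus strand): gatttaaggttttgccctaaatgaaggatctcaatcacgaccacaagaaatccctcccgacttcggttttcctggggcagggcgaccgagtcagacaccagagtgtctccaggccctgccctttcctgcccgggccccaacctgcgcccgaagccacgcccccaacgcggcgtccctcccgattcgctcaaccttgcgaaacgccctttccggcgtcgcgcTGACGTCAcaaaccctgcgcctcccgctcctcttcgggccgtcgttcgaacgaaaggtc
Ndufv3 (chr17:31519865-31520144, plus strand): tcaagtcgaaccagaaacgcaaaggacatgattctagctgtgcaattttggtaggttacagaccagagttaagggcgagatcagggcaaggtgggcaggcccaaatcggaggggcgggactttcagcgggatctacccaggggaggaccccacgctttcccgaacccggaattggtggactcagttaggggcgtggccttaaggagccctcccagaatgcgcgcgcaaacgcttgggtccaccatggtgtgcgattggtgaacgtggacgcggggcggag
The capitals in Atp5c1, which encodes the gamma subunit of the central stalk, are an AP-1 element. Those in Atp5g3, a gene of the proton-carrying c-ring, are an NRF1 element lying just after the start. Those in Atp5e, the epsilon subunit, are an ETS element on the opposite strand, and those in Uqcrfs1, the Rieske iron-sulfur protein of complex III, are a cAMP response element. Ndufv3, an accessory protein of the NADH-binding part of complex I, held none of these.

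Motifs were counted on both strands of the 300-base promoters (250 before to 50 after the start). The NRF1 motif GCGCNTGCG was in 24 of 75 member promoters (32%), against 9.78% of all 17274 promoters and 15.6% of those of the 9649 genes with Pol II peaks in every library. The YY1 motif AANATGGCG was in 11 (14.7%), against 3.67% and 6.08%. The ETS motif CCGGAAG was in 17 (22.7%), against 13.1% and 20.8%. The NRF1 and YY1 shares of members were above those of both reference sets, and the ETS share was close to that of genes with Pol II. The full NBRE letters AAAGGTCA were in 0 of 75 member promoters, against 1.51% and 1.23%, and their half-site AGGTCA, part of the NBRE, was in 16 (21.3%), against 16.6% and 15.0%. The AP-1 motif TGANTCA was in 7 (9.33%), against 8.19% and 6.01%, the cAMP response element TGACGTCA in 4 (5.33%), against 2.58% and 3.67%, and the GC box GGGCGG in 33 (44%), against 49.8% and 67.8%. These are matches of letters in 1 window and do not show that a factor was bound.

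Nearly all members carried Pol II and H3K27ac. A Pol II peak lay over 85 of the 92 members in all 8 libraries (92.4%), against 54.9% of all genes, and an H3K27ac peak over 85 (92.4%), against 55.7%. The annotated start site lay inside a Pol II peak in all libraries for 71 of 75 members (94.7%), against 47% of genes, and inside an H3K27ac peak for 71, against 46.6%. The 7 members that were not tested were 5 tissue-restricted isoforms and 2 Ndufb4 copies. No peak of any target lay over Cox8c, Cox7b2, Ndufb4b or Ndufb4c, of which the last 2 are near-identical to Ndufb4 and therefore uncertain. Cox4i2, the lung isoform of subunit 4, had peaks in 3 Pol II, 6 H3K27ac and 2 HA libraries, and shares Pol II and H3K27ac peaks with Bcl2l1. Cox6b2, a testis isoform, had peaks in 4 Pol II libraries, up to 584 tags as deposited, and in 0 H3K27ac libraries. It shares its Pol II regions with Fam71e2 and Kmt5c, and their called length was 14.7 kb in untreated GFP replicate 1, which had the most tags. Cox8b, a heart and muscle isoform, had peaks in 2 H3K27ac libraries. The other 3 isoforms had peaks of both kinds throughout. Of these, Ndufa4l2, a hypoxia-inducible relative of Ndufa4, had Pol II tags of 499 and 442 in untreated GFP cells, 1032 and 1351 after LPS, 1168 and 383 in untreated Nur77 cells and 1966 and 1897 after LPS. The LPS libraries of each line were above its untreated ones, with log2 changes of 1.33 (adjusted p = 0.113) and 1.53 (adjusted p = 0.0566, and 0.0425 with the replicate number as a block). These changes are for whole peaks, which Ndufa4l2 shares with Shmt2, and its inside-window change is not reported here. The called length was 6.32 and 6.39 kb untreated and 11.65 and 11.75 kb after LPS in GFP cells. In Nur77 cells it was 12.9 and 6.32 kb, then 12.2 and 12.1 kb. The muscle isoforms Cox6a2 and Cox7a1 passed no test after LPS: Cox6a2 ranged from 20.6 to 416 Pol II tags over the 8 libraries and Cox7a1 from 89.4 to 191. Their Pol II peaks are shared with Itgad and Capns1 respectively.

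Levels were compared between genes as scaled tags per kb of gene window, counting the part of each peak inside the window. In untreated GFP cells the 85 members had a median Pol II level of 28.9 tags per kb, against 8.68 for all 11876 genes tested (interquartile range 3.56 to 21.8). The median member lay at the 80.6th percentile, and 89.4% of members lay above the median gene. By role, median Pol II levels were 40.9 for ATP synthase, 36.2 for complex III, 29.2 for complex IV, 28.9 for the 3 isoforms, 24.4 for complex I subunits and 12.4 for complex I assembly factors. All 17 ATP synthase and all 11 complex IV genes were above the median gene. H3K27ac had a median of 21.0 tags per kb over members and 7.56 over all genes. In the other 3 groups the members' median lay between the 79.7th and 80.5th percentile for Pol II and the 78.0th and 79.1th for H3K27ac. With whole peaks divided by window length, the member median for Pol II was 35.9 and that of all genes 10.5. Not divided by length, the median member and median gene had 293 and 294 scaled Pol II tags in untreated GFP replicate 1. In replicate 2 they had 297 and 300. For H3K27ac they had 209 and 237 in replicate 1, and 199 and 237 in replicate 2. The higher levels of members are thus per kb of window and not in tags per gene.

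Within each role the levels covered a wide range. Among complex I subunits, Ndufb10, an accessory subunit of the membrane arm, was highest with a Pol II level of 197 ± 1.04 tags per kb (SD, n = 2), and Ndufs4, an accessory subunit of the matrix arm encoded by a long gene, was lowest with 1.33 ± 0.09. Among assembly factors Ndufaf3 had 106 ± 2.41 and Ndufaf2 1.76 ± 0.07. In complex III, Uqcrq, a small accessory subunit, had 134 ± 20.4 and Uqcrc2, one of the core proteins, 6.38 ± 0.35. In complex IV, Cox5b had 53.4 ± 3.00 and Cox7a2l, which links complexes III and IV in supercomplexes, 11.5 ± 2.30. In ATP synthase, Atp5g1, another c-ring gene, had 82.3 ± 7.51 and Atp5c1 15.4 ± 0.33. Of the isoforms, Ndufa4l2 had 47.6 ± 4.05 and Cox6a2 21.0 ± 7.67. The Pol II regions of Ndufb10 also reach Rnf151 and Rps2, a ribosomal protein gene. Those of Ndufaf3, Uqcrq, Cox5b and Ndufa4l2 reach other genes too, and those of Atp5g1 touch none. The levels over shared regions can thus include signal of neighbours. Over the 85 members, Pol II and H3K27ac levels on the log2 scale had a Pearson r of 0.86 to 0.89 in the 4 groups, a description across genes that share the same windows.

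**Figure D1:**
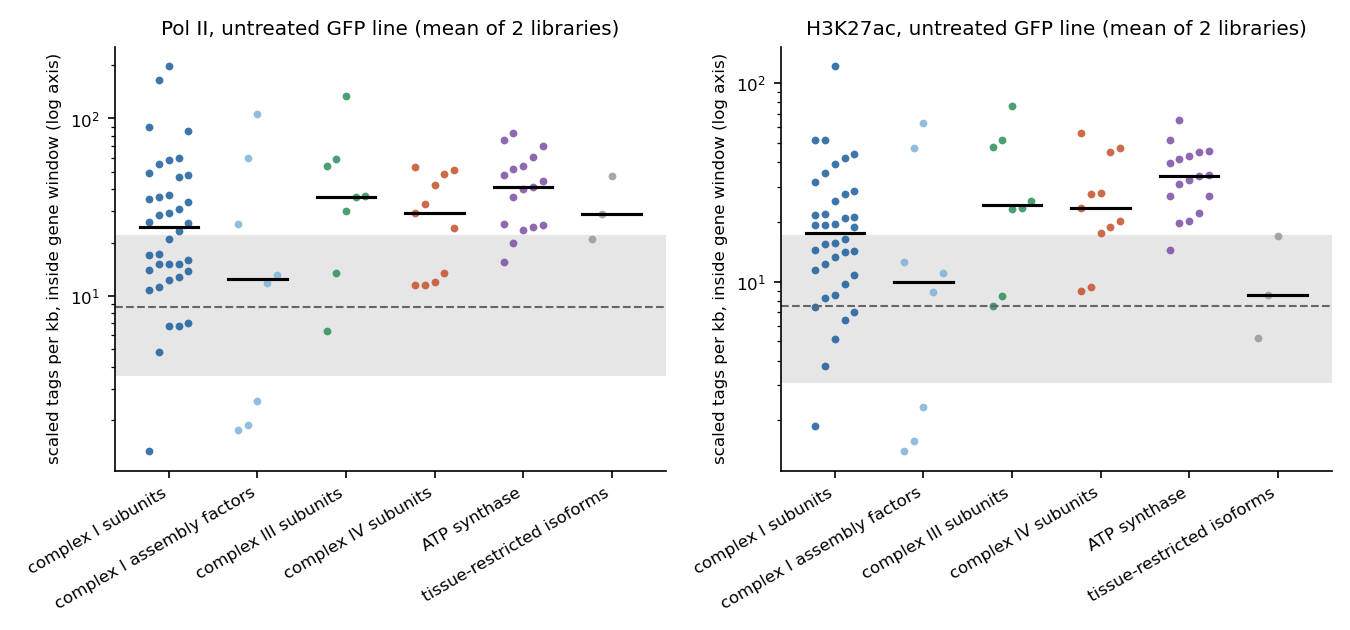
Scaled tags per kb of gene window (log axis), counting the part of peaks inside the window, for the 85 members in untreated GFP cells, by role, for Pol II (left) and H3K27ac (right). Points are means of 2 libraries, black bars the role medians, the dashed line the median of all genes tested and the grey band their interquartile range. The Pol II median of every role lies above the dashed line at 8.68.

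HA-Nur77 peaks were found over many members but were low. An HA peak in at least 1 library lay over 70 of the 92 members (76.1%), against 56.1% of all genes, and a peak in all 6 libraries over 19 (20.7%), against 23.6%. The 19 were 9 complex I subunits, 1 assembly factor, 3 complex III subunits, 6 ATP synthase genes, 0 of 11 complex IV genes and 0 of 8 isoforms. With replicates 1 and 2 alone the count was 20 (21.7%), against 25.4%. No member had a peak in all 3 LPS libraries and in no untreated one, against 1.53% of genes, or the reverse, against 0.153%. The median HA level of the 19 members was 31.2 to 47.5 scaled tags in the 6 libraries, and that of all 5102 genes tested 65.5 to 71.6.

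The share of members with HA on the start site was above that of all genes, a description with no test. The start site was inside an HA peak in all 6 libraries for 8 of 75 members (10.7%), against 2.48% of all genes and 4.29% of genes with Pol II peaks throughout. These were Atp5c1, Atp5e, Atp5g3, Ndufa5, Ndufb2, Ndufs7, Ndufv3 and Uqcrfs1. With replicates 1 and 2 alone, the count was 10 (13.3%), against 5.62% and 9.84%. In single libraries, 18 to 35 members (24 to 46.7%) had the start site in an HA peak, against 8.89 to 16.7% of all genes. No library of the GFP line gives the HA signal that open promoters have without the tag, so the part of such signal in these counts was not tested.

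Of the members with HA in all 6 libraries, Atp5mpl, a small proteolipid of the membrane part of ATP synthase, had the highest mean. Its region at chr12:111966386-111967430, inside the gene, had 124, 69.8 and 134 scaled tags in the untreated libraries and 149, 72.7 and 146 after LPS, so the groups overlapped and replicate 2 was low in both. Ndufaf7, a methyltransferase of complex I assembly, had 86.4, 115 and 49.3 and 78.3, 135 and 56.5 at chr17:78938733-78939749, inside the gene and 2086 bp after its start. Its replicates spread more widely than the means of the treatments. Uqcrc2 had 87.5 ± 14.2 untreated (SD, n = 3) and 69.5 ± 20.4 after LPS, and Uqcrq 67.1 ± 17.1 and 77.4 ± 16.1 at chr11:53429972-53431000, inside the gene. Ndufs4 had 42.2 ± 18.0 and 65.3 ± 13.2, and its region in all 6 libraries lay inside the gene, 25847 bp from the start. Uqcrfs1 had 57.2 ± 22.6 and 46.9 ± 17.9 on the promoter printed above, and Ndufa11, an accessory membrane subunit, 58.6 ± 26.0 and 41.9 ± 16.4. The other printed promoters had lower HA: Atp5g3 36.8 ± 7.88 and 33.5 ± 3.23, Atp5e 28.8 ± 1.09 and 30.2 ± 3.80, Atp5c1 23.7 ± 4.46 and 19.7 ± 4.76, and Ndufv3 22.5 ± 3.60 and 18.8 ± 7.77. Input-enriched regions lay over Atp5mpl at 14.6 tags per 10 M in untreated GFP, 7.26 in LPS-treated GFP and 6.47 in LPS-treated Nur77 cells. Untreated GFP input had them over Ndufaf7 (11.4), Uqcrc2 (6.78) and Ndufs4 (7.49), and untreated Nur77 input over Ndufs4 (7.2) and Uqcrq (7.5). The other members named here had none. The part of input in these HA tags was not tested.

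No member passed for HA after LPS. In limma, 0 of 19 passed in either direction, where 1.82% of genes tested were higher and 0.686% lower, and 0 of 19 had an unadjusted p under 0.05. The median log2 change was -0.11, with 8 positive and 11 negative. The 3 members with the smallest p were Ndufs4 at 0.69 (SE 0.38, adjusted p = 0.385), Ndufa5 at -0.32 (SE 0.23, adjusted p = 0.532) and Atp5a1, the alpha subunit of the catalytic head, at -0.45 (SE 0.34, adjusted p = 0.557). Of 3 tested LPS-induced genes, Ccl4, a chemokine gene, rose by 1.55 (adjusted p = 0.0313).

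**Figure D2:**
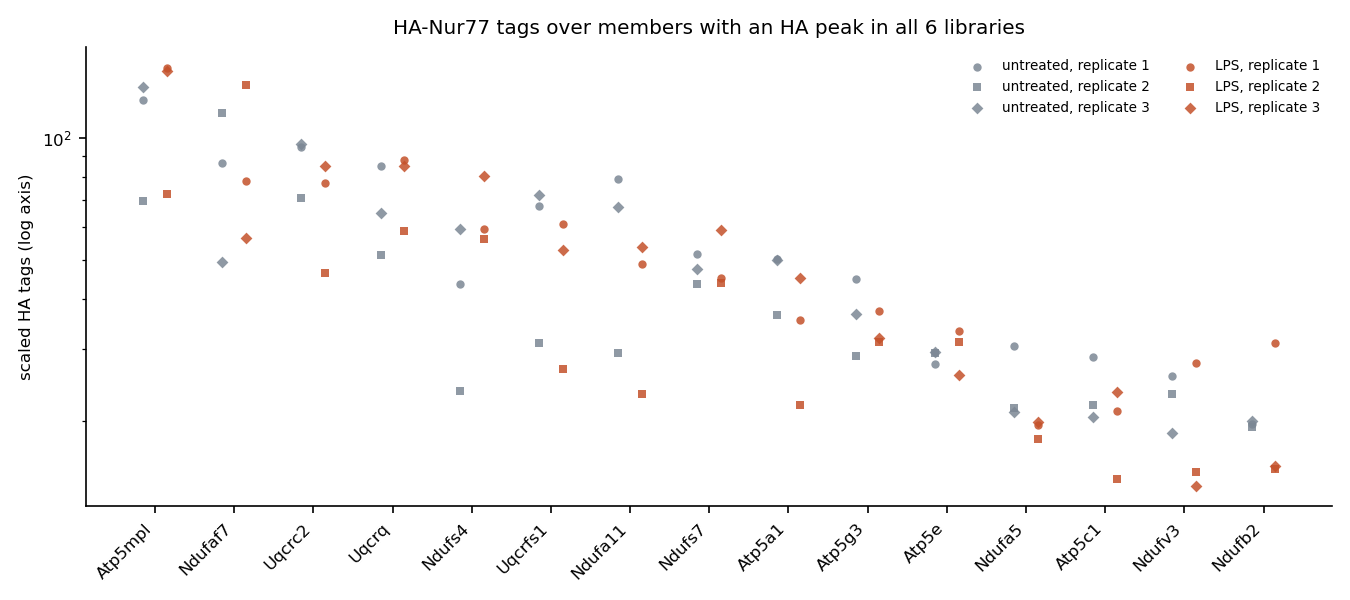
Scaled HA tags (log axis) over members described in the text that had an HA peak in all 6 libraries of the Nur77 line, ordered by mean. Each symbol is 1 library, grey untreated and orange LPS, with the shape giving the replicate. The 2 colours overlap for each member shown except Ndufa5, whose LPS libraries lie below its untreated ones without passing the test.

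After 1 h of LPS, few members passed for Pol II in the GFP line, and those that did rose. In limma, 4 of 85 members were higher (7.81% of all genes tested) and 0 lower (6.25%). At an unadjusted p under 0.05 there were 23 members, and the share of all genes at that level is not given here. The 4 higher members were Uqcrh, the hinge protein of complex III that contacts cytochrome c1, Atp5k, the e subunit, Ndufaf3, and Atp5pb, the b subunit of the peripheral stalk. With the replicate number as a block, since same-numbered Pol II libraries deviated together, 10 were higher (13.4%) and 3 lower (12.4%). The members' median log2 change was 0.20, against 0.01 for all genes. Both LPS libraries exceeded both untreated ones for 41 of 85 members, against 29.8% of all genes, and both were below for 13, against 28.4%.

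In the Nur77 line, LPS gave 16 of 85 members higher (12.2%) and 1 lower (12.7%), and 23 (19.4%) and 4 (19.3%) with the block. The median change was 0.26, against 0.01. Both LPS libraries exceeded both untreated ones for 49 members, against 33.8% of genes, and both were below for 14, against 33.4%. The genes that passed in both lines were Atp5pb, Ndufaf3 and Uqcrh, 75% of the 4 in GFP cells and 18.8% of the 16 in Nur77 cells. The LPS effect itself was not shown to differ between the lines: the interaction passed for 0 of 85 members in limma, where 0.0253% of genes were higher and 0.0421% lower. For 2 members its unadjusted p was under 0.05, again without a share of all genes. The 3 smallest p values of the interaction belonged to Ndufs1 at 1.17 (adjusted p = 0.504), Atp5c1 at -0.62 and Ndufa1, a membrane-arm accessory subunit, at 0.43. Across the 85 members, the log2 changes in the 2 lines, which share no library, had a Pearson r of 0.85 and a Spearman rho of 0.82.

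By role, all 11 complex IV genes had a positive change in GFP cells (median 0.43, 0 passing) and 10 of 11 in Nur77 cells (median 0.44). There, Cox7c, a small accessory subunit, Cox7a2l and Cox4i1, the ubiquitous isoform of subunit 4, rose. Ndufa4, a complex IV subunit counted with complex I by its symbol, did not share this direction. Its Pol II tags were 296 and 375 untreated and 277 and 335 after LPS in GFP cells, where the groups overlapped. In Nur77 cells they were 385 and 358, then 292 and 294. All 8 complex I assembly factors were positive in GFP cells (median 0.31) and 7 of 8 in Nur77 cells (0.41), with Ndufaf3 and Ndufaf5 rising in the latter. The 38 tested complex I subunits had 17 positive and 21 negative changes in GFP cells (median -0.04) and 24 and 14 in Nur77 cells (0.12), where 6 rose and Ndufv3 fell. ATP synthase genes had medians of 0.20 and 0.15, with 2 and 3 of 17 rising, and complex III genes 0.22 and 0.30, with 1 and 2 of 8 rising. These medians carry no test, and without scaling factors the median of all genes shifted to -0.12 in GFP and -0.35 in Nur77 cells, with 1 member higher and 0 lower in GFP cells and 3 higher and 6 lower in Nur77 cells. Over all genes, the share of calls that were higher then went from 55.5 to 43.3% in GFP and from 48.9 to 22.1% in Nur77 cells.

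Uqcrq, which also carried HA, showed the largest rise that was nearly as large inside the window. Its Pol II tags were 888 and 739.5 in untreated Nur77 cells and 2645 and 1741 after LPS, a log2 change of 1.40 (SE 0.28, adjusted p = 0.0139, inside-window change 1.30). Both LPS libraries were above both untreated ones. In GFP cells the tags were 1062 and 807 and then 2060.3 and 1466, again without overlap, with a change of 0.91 (adjusted p = 0.08, and 0.00689 with the block). The length of called region over Uqcrq was 6.91 and 6.01 kb untreated and 6.67 and 6.73 kb after LPS in Nur77 cells. It shares its region with Gdf9, a growth factor gene.

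Ndufc2, a complex I accessory subunit, and Cox7a2l have peaks that touch no other gene. Ndufc2 had 167 and 154 Pol II tags in untreated and 323 and 268 in LPS-treated Nur77 cells (0.87, SE 0.17, adjusted p = 0.013), and 166 and 148, then 239 and 229, in GFP cells (0.57, adjusted p = 0.072). Cox7a2l had 217 and 205 and then 419 and 349 in Nur77 cells (0.85, SE 0.21, adjusted p = 0.0265), and 222 and 212, then 361 and 255, in GFP cells (0.48, adjusted p = 0.178). In Nur77 cells the groups of both genes were well separated. The called regions lengthened with the tags, from 2.32 and 2.60 kb to 4.01 and 5.12 kb over Ndufc2 and from 2.91 and 3.04 kb to 5.67 and 5.29 kb over Cox7a2l in Nur77 cells. Per kb of called region the changes were -0.18 and -0.20, so the rise is in the summed tags and not in their density.

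Among members with shared peaks, Atp5pb rose in both lines, by 0.58 in GFP cells (adjusted p = 0.0365) and 0.81 in Nur77 cells (adjusted p = 0.00782), with inside-window changes of 0.58 and 0.67. Input-enriched regions lay over Atp5pb, at 42.8 tags per 10 M in untreated GFP, 23.4 in untreated Nur77 and 71.8 in LPS-treated Nur77 cells. The LPS-treated GFP input had none there. The part of input in the change at Atp5pb was not tested. Atp5md, a small membrane subunit, rose by 0.81 in Nur77 cells (adjusted p = 0.0212, inside 0.68). Ndufaf3 rose by 0.78 and 0.77 (inside 0.44 and 0.57), its regions reaching Dalrd3, Impdh2, Qrich1 and Wdr6. For these 3 genes the inside-window change kept its direction and, in Nur77 cells, passed the test.

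Other large changes had much smaller inside-window changes, which does not place them outside the gene. Ndufs1, the largest core subunit of complex I, went from 398 and 322 to 1058 and 1239 Pol II tags in Nur77 cells (1.67, adjusted p = 0.00138) while the inside-window change was 0.06, its region growing from 2.76 and 2.59 kb to 7.68 and 9.61 kb toward Eef1b2 and Gpr1. Ndufa2, an accessory subunit, had a change of 2.16 (adjusted p = 0.0362, inside 0.68) over a region shared with 5 genes. Its untreated Nur77 libraries were far apart, at 2037 and 638 tags, against 4699 and 5546 after LPS. The higher untreated value is from replicate 1, the library with the long fragment estimate. Ndufaf5, an assembly factor, had 1.48 (adjusted p = 0.015, inside 0.24), sharing with Esf1. Uqcrh had 1.02 and 0.82 (adjusted p = 0.0117 and 0.0152) but 0.19 and 0.30 inside, and Atp5k 0.85 in GFP cells (adjusted p = 0.0278) but 0.04 inside. Input-enriched regions lay over Uqcrh at 13.0 tags per 10 M in LPS-treated GFP and 18.5 in LPS-treated Nur77 cells. The untreated inputs had none there. The part of input in the Pol II and H3K27ac changes at Uqcrh was not tested. Counting only the part inside windows, 1 of the 4 members higher in GFP cells still passed (Atp5pb) and 10 of the 16 in Nur77 cells. Of the 25 tested members whose Pol II peaks touch no other gene, 0 passed in GFP cells and 3 in Nur77 cells (Cox7c, Cox7a2l and Ndufc2).

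Ndufv3 was the only member that fell for Pol II without the block. It had 241 and 207 tags in untreated and 129 and 110.5 in LPS-treated Nur77 cells (-0.90, SE 0.20, adjusted p = 0.0197, inside -0.85), and 262 and 202, then 143 and 148, in GFP cells (-0.66, adjusted p = 0.0747, and 0.0281 with the block). All 4 LPS libraries were below all 4 untreated ones. The called region shortened from 2.81 and 3.05 kb to 1.79 and 1.14 kb in Nur77 cells, and it reaches Wdr4. Uqcr11, a small complex III subunit, had the most negative changes (-1.72 and -1.64), and neither passed (adjusted p = 0.308 and 0.275). Its replicates were far apart, at 185 and 1226 tags after LPS in GFP cells and 245 and 1316 in Nur77 cells.

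Leaving out single Pol II libraries moved these counts. In GFP cells the number of members passing was 0 without GFP LPS replicate 2, 1 without GFP untreated replicate 2, 2 without GFP untreated replicate 1 or either untreated Nur77 library, and otherwise 3 to 5. In Nur77 cells it was 1 without Nur77 untreated replicate 2, 5 without untreated replicate 1, 7 without LPS replicate 2, and otherwise 13 to 15. In such fits the lone library of a group is assumed to vary like the other groups. Without Nur77 untreated replicate 1, the library with the long fragment estimate, and with the block, 7 and 11 members passed, a fit chosen after the data were seen. Of the 8 largest rises in Nur77 cells, that of Ndufs1 passed in every fit without 1 library and the other 7 did not. Uqcrq and Ndufc2 did not pass without either untreated Nur77 library or LPS replicate 1, nor Ndufv3 without either untreated Nur77 library or LPS replicate 2, nor Cox7a2l without any 1 of the 4 Nur77 libraries.

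**Figure D3:**
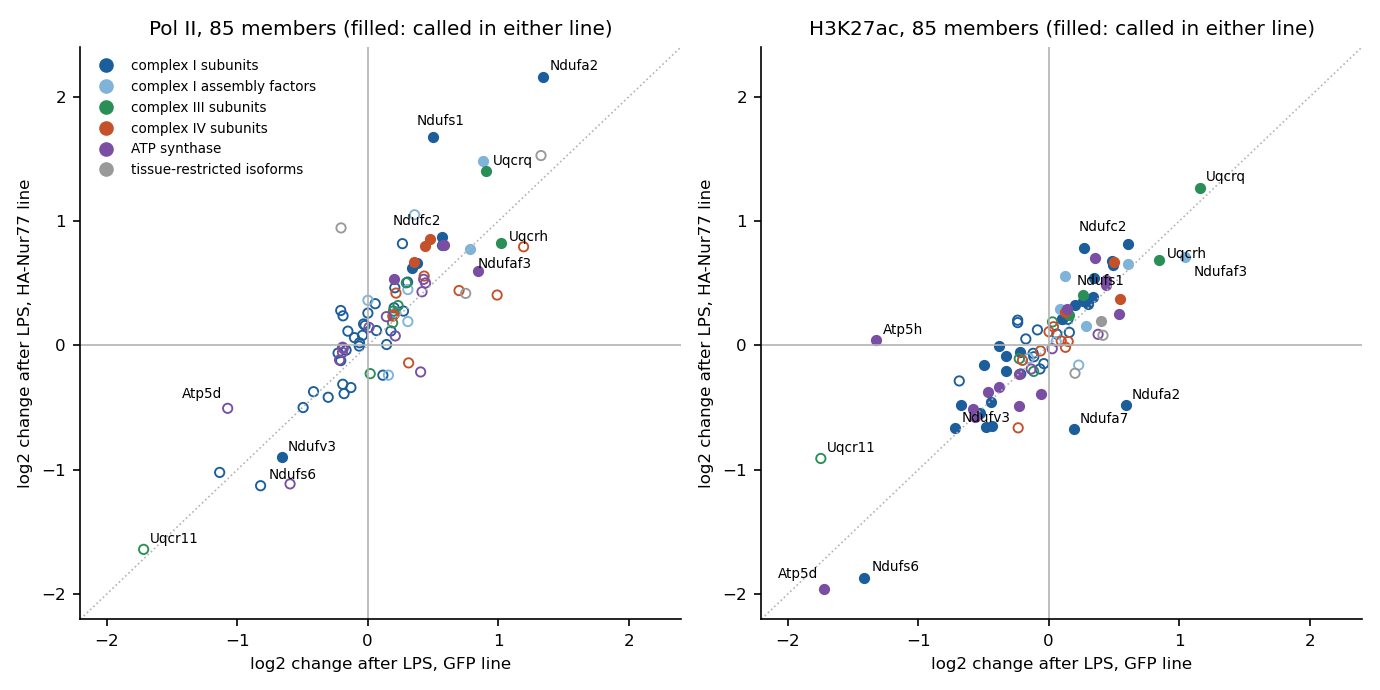
Log2 change of scaled tags after LPS in the GFP line (horizontal) and the HA-Nur77 line (vertical) for the 85 tested members, Pol II on the left and H3K27ac on the right, coloured by role and filled where the member passed in either line. The dotted line marks equal changes. Most members lie near it, with a Pearson r of 0.85 and 0.82, and Atp5h, Ndufa2 and Ndufa7 lie away from it for H3K27ac.

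H3K27ac over the members changed in both directions after LPS. In GFP cells 22 of 85 members rose (29% of genes tested) and 19 fell (25.4%), and in Nur77 cells 26 rose (30.2%) and 17 fell (28.3%). These shares are near those of all genes, and the members' median change was 0.04 in both lines. Of the risers, 17 were shared by the lines, 77.3% of those in GFP and 65.4% of those in Nur77 cells, and of the fallers 13, 68.4% and 76.5%. Without scaling factors, which moved the median of all genes to -0.40 and -0.42, the counts were 3 higher and 52 lower in GFP cells and 6 and 46 in Nur77 cells, so the directions are relative to the other genes. The HOMER local filter was on in replicate 1 of both GFP groups and of untreated Nur77 cells, and off in the other 5 libraries. Its part in these changes was not tested.

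By role, the counts were small and are given beside the 29% and 30.2% of all genes that rose and the 25.4% and 28.3% that fell. In GFP and Nur77 cells respectively, 3 and 4 of 8 complex III genes rose, 2 and 3 of 11 complex IV genes and 3 and 4 of 8 assembly factors, with 0 falling in each. Of 17 ATP synthase genes, 4 rose in each line and 7 and 8 fell. Complex I subunits were divided, 9 rising and 12 falling in GFP cells and 11 and 9 in Nur77 cells. The difference between roles was not tested.

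The largest rise in both lines was at Uqcrq, from 365 and 408 to 939 and 793 H3K27ac tags in GFP cells (1.16, SE 0.11, adjusted p = 0.000119) and from 359 and 325 to 876 and 777 in Nur77 cells (1.27, adjusted p = 7.15e-05). Its called length stayed at 2.98 and 3.00 kb untreated and 2.89 and 2.99 kb after LPS in Nur77 cells, and the inside-window changes were 1.16 and 1.31. Every LPS library of a line thus lay above both its untreated ones over nearly the same length. Ndufaf3 rose by 1.05 and 0.71 (inside 0.95 and 0.78), Uqcrh by 0.84 and 0.69 (inside 0.79 and 0.76) and Ndufc2 by 0.61 and 0.82. Cox6c, a complex IV subunit, Ndufaf5, Ndufa2 and Atp5mpl rose by 0.55, 0.60, 0.59 and 0.54 in GFP cells, with inside-window changes of 0.65 at Ndufaf5 and 0.39 at Ndufa2. Ndufb9, Atp5md, Ndufb2 and Cox7a2l rose by 0.78, 0.70, 0.68 and 0.67 in Nur77 cells. Adjusted p for these ranged up to 0.0419, at Ndufb9, whose inside-window change was 0.21 and did not pass.

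Ndufv3 fell for H3K27ac in both lines, from 109.5 and 109 to 65.5 and 66.5 in GFP cells (-0.72, adjusted p = 0.00243) and from 113 and 104 to 60.7 and 76.7 in Nur77 cells (-0.67, adjusted p = 0.00313), the direction seen for Pol II. Like the rise at Uqcrq, these falls passed in every fit that left out 1 library. Atp5a1 fell by 0.56 and 0.57, and Ndufa5, an accessory subunit, by 0.53 and 0.54, with nearly equal inside-window changes. Atp5o, the oligomycin-sensitivity subunit, whose peak touches no other gene, fell by 0.58 in GFP cells, and Ndufb6, a membrane-arm subunit, by 0.67 (inside -0.40). In Nur77 cells Ndufa13 and Ndufb11, also accessory subunits, fell by 0.66 and 0.65. The largest falls had smaller inside-window changes. Atp5d, the delta subunit of the central stalk, fell by 1.72 and 1.96 with -0.29 and -0.48 inside. Its called length was 28.6 and 28.8 kb in untreated GFP cells and 11.7 and 11.9 kb after LPS. Ndufs6, a zinc-binding accessory subunit, fell by 1.42 and 1.87 (inside -0.78 and -0.58), and its 2 untreated GFP libraries had 401 and 121 tags. Ndufa7 fell by 0.67 in Nur77 cells but had an inside-window change of 0.86, and Uqcr11 had changes of -1.75 and -0.91 (adjusted p = 0.104 and 0.361).

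Of the 16 members with more Pol II after LPS in Nur77 cells, 12 also rose for H3K27ac (75% of the 16 and 46.2% of the 26), among them Uqcrq, Ndufc2, Cox7a2l, Atp5pb and Ndufaf3. Ndufa2 rose for Pol II and fell for H3K27ac. Across the 85 members, LPS changes of the 2 targets, measured in separate libraries over the same windows, had a Pearson r of 0.77 in GFP and 0.63 in Nur77 cells.

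**Figure D4:**
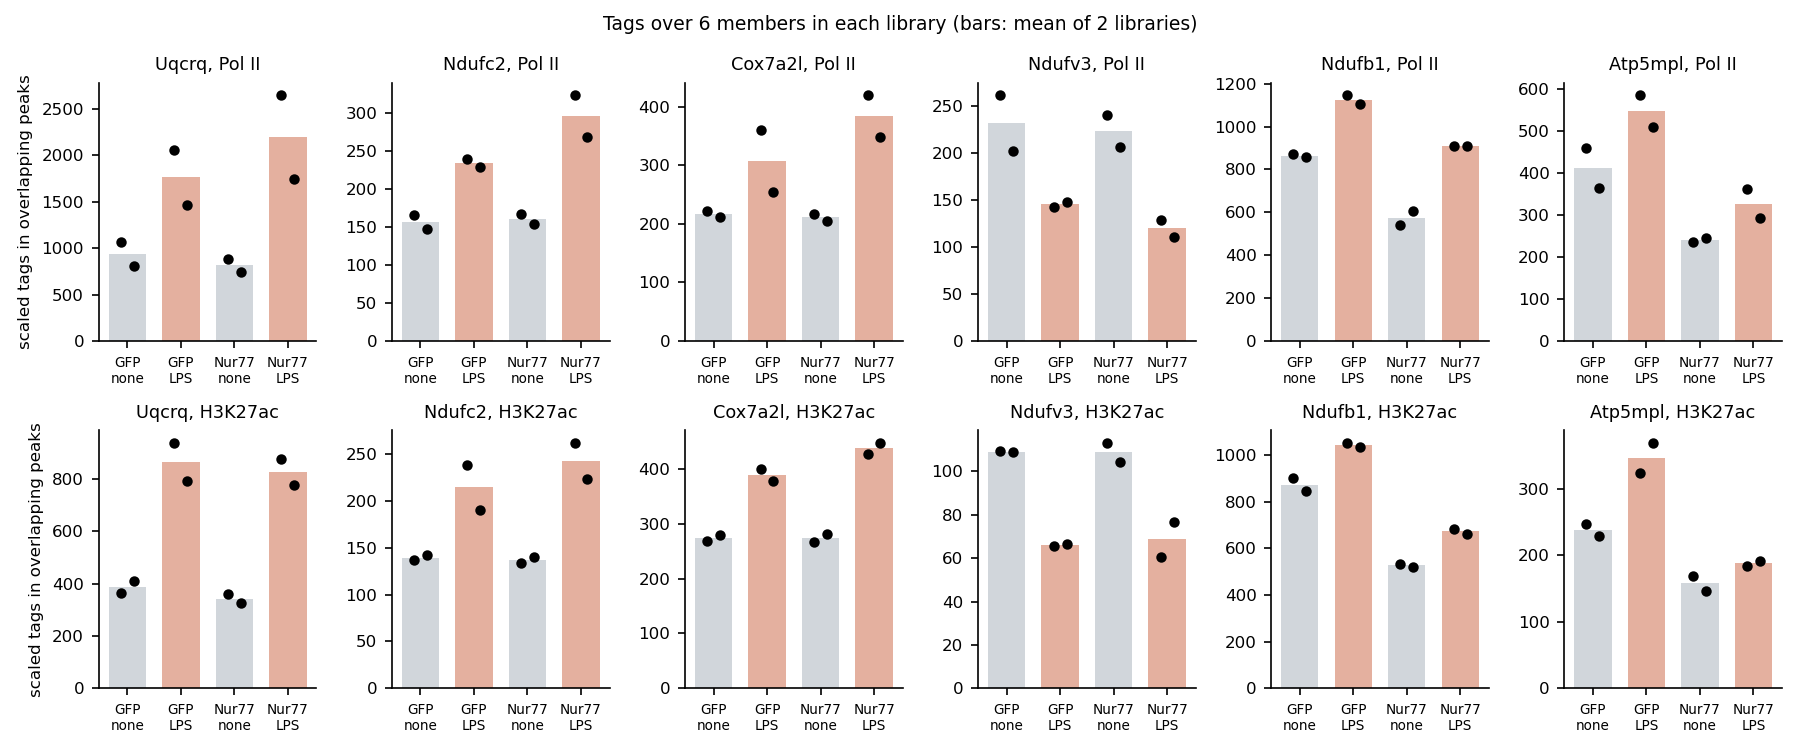
Scaled tags in overlapping peaks for 6 members in each library (points; bars are means of 2), for Pol II (top row) and H3K27ac (bottom row), in untreated and LPS-treated cells of the GFP and HA-Nur77 lines. Uqcrq, Ndufc2 and Cox7a2l are higher after LPS, Ndufv3 lower, and Atp5mpl and Ndufb1 are lower in Nur77 than in GFP cells.

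Between the lines, 1 member passed for Pol II, and only after LPS. In untreated cells 0 of 85 passed in limma, where 0.16% of genes were higher and 0.0842% lower in Nur77 cells. At an unadjusted p under 0.05 there were 4 members, again without a share of all genes. The smallest p values were at Ndufb1, a small membrane-arm subunit (-0.59, adjusted p = 0.223), Atp5mpl (-0.76, adjusted p = 0.252) and Ndufa1 (-0.45, adjusted p = 0.463), all lower in Nur77 cells. After LPS 1 member, Ndufs1, was higher (0.286% of genes) and 0 were lower (0.269%). Its change was 1.30 (adjusted p = 0.0353) and -0.15 inside the window, and it passed in none of the 8 fits that left out 1 library. With the block Atp5c1 also passed, lower in Nur77 cells. Without scaling factors the median of all genes in untreated cells moved to 0.16.

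More members passed for H3K27ac between the lines, as did more genes overall. In untreated cells 3 members were higher in Nur77 cells (13% of genes) and 10 lower (12%), and after LPS 6 higher (15%) and 11 lower (17.7%). Atp5mpl was lower under both conditions: 168 and 147 tags in untreated Nur77 against 247 and 228 in untreated GFP cells (-0.59, SE 0.10, adjusted p = 0.0047), and 183 and 192 against 324 and 369 after LPS (-0.88, adjusted p = 0.000708). The 2 lines did not overlap, and the peak touches no other gene. This member had the highest HA signal of all, with input-enriched regions over it as given above. Its Pol II tags were also lower, 237 and 245 against 459.7 and 364 untreated and 361 and 292 against 585 and 509.7 after LPS, without passing. In untreated cells the Pol II difference was -0.76 (SE 0.19), no smaller than that of H3K27ac and with a larger standard error. Ndufb1 was lower too, with differences of -0.73 and -0.63 (adjusted p = 0.000159 and 0.000254), and its region also covers Cpsf2. Atp5g3, with HA on its promoter, was lower on its own peak, with differences of -0.30 and -0.31 (adjusted p = 0.0142 and 0.0113). The comparisons in untreated and in LPS-treated cells share no library, but whether a line difference comes from Nur77 or from other differences between 2 separately made lines cannot be told apart. With 1 library left out, 5 to 16 members passed in untreated cells (5 and 6 without Nur77 untreated replicate 1 and 2, 7 without either GFP untreated library) and 9 to 13 after LPS (9 without either GFP LPS library, 10 without Nur77 LPS replicate 1). Atp5mpl and Ndufb1 passed in every such fit under both conditions, and Atp5g3 did not pass in untreated cells without GFP replicate 1 or either Nur77 replicate.

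Others lower in untreated Nur77 cells included Ndufa1 (-0.50), Ndufaf4 (-0.41), Ndufa10 (-0.38), Ndufb4 (-0.37) and Atp5o (-0.26), with adjusted p of 0.0282 to 0.0483. After LPS, Uqcrh (-0.41), Cox6c (-0.39), Atp5b, the catalytic beta subunit (-0.32), Ndufaf2 (-0.31) and Ndufs8, a core iron-sulfur subunit (-0.28, inside -0.05), were among those lower. Higher in LPS-treated Nur77 cells were Ndufv1 (0.45) and Ndufv2 (0.25) of the NADH-binding part, Ndufa8 (0.38) and Ndufaf7 (0.37). The 3 members higher in untreated Nur77 cells all have shared regions: Ndufa2 (1.36, inside 0.42), Ndufa7 (0.97, inside -0.42) and Atp5h, the d subunit of the peripheral stalk (0.30, inside 0.46). After LPS, Atp5h (1.66, inside 0.56) and Ndufa2 (0.29) were higher.

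The H3K27ac interaction passed for these same 3 genes, 1 higher (0.174% of genes) and 2 lower (0.681%). Atp5h had 401 and 422 tags in untreated and 167 and 161 in LPS-treated GFP cells, and 498 and 514, then 524 and 519, in Nur77 cells, an interaction of 1.36 (adjusted p = 0.000463). Tags fell in GFP cells (-1.32, adjusted p = 5.26e-06) and had a change of 0.04 in Nur77 cells (adjusted p = 0.556). The called region shortened in GFP cells from 6.28 and 7.16 kb to 2.60 and 2.81 kb, and the inside-window interaction was 0.10. For Ndufa2 it was -1.07 (adjusted p = 0.00357, inside -0.37) and for Ndufa7 -0.86 (adjusted p = 0.00407, inside 0.74, the opposite sign). None of the 3 passed with the part inside the window alone.

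**Figure D5:**
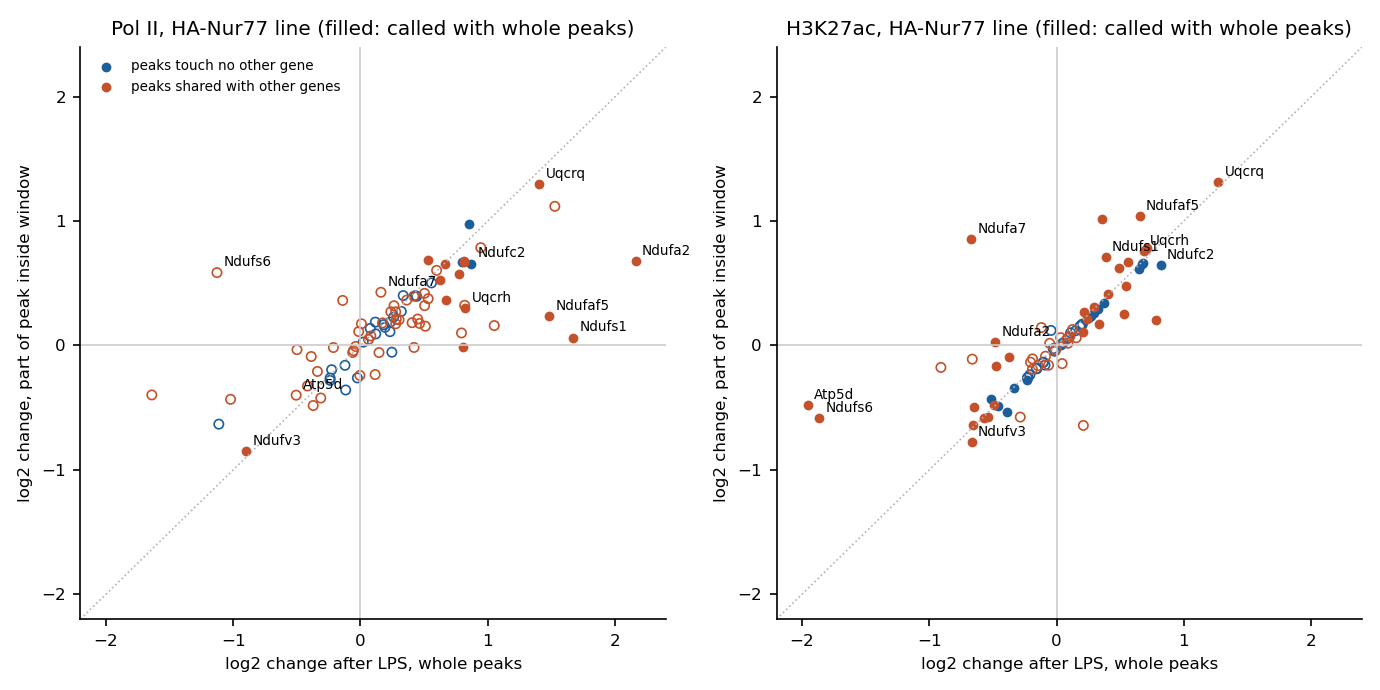
Log2 change after LPS in the HA-Nur77 line computed from whole peaks (horizontal) and from the part of peaks inside the gene's window (vertical), Pol II on the left and H3K27ac on the right. Blue members have peaks that touch no other gene, orange ones share a peak, and filled points passed with whole peaks. Uqcrq, Ndufc2 and Ndufv3 lie near the dotted line of equal change, while Ndufs1 and Ndufa2 for Pol II and Atp5d and Ndufa7 for H3K27ac lie far from it.

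Genes of the same pathway outside the name rule were counted in lists, beside the 7.81% of all genes that rose and 6.25% that fell for Pol II after LPS in GFP cells and the 12.2% and 12.7% in Nur77 cells. In these lists the counts were too small to set against those shares. For Pol II, 1 of 8 complex II genes rose in each line, Sdhaf1, an assembly factor (1.21 and 1.20, adjusted p = 0.0189 and 0.0123, inside 0.87 and 1.02). Of 18 electron carrier and coenzyme Q genes, 2 rose and 0 fell in GFP cells and 4 rose and 1 fell in Nur77 cells. Among these, Coq10b, a coenzyme Q-binding protein with its own peak, rose by 1.34 and 0.69, Cyc1, cytochrome c1, by 1.21 in Nur77 cells (inside -0.03), and Coq9 by 0.64 and 0.87 (inside -0.49 and 0.20). Coq10a fell by 1.81 in Nur77 cells (inside -1.40). Of 35 tested assembly factors outside the name rule, 1 rose and 1 fell in each line: Cox17, a copper chaperone of complex IV whose peak touches no other gene, rose by 1.46 and 1.43 (adjusted p = 0.00557 and 0.00366), and Cox14 fell by 0.63 and 0.56 (inside -0.61 and -0.56). Cox17 H3K27ac rose too, by 1.12 and 1.11. Of 12 regulators of mitochondrial genes, 1 rose in GFP cells, Esrra, an orphan nuclear receptor (1.37, inside 0.26), and 1 fell in Nur77 cells, the coactivator gene Ppargc1b (-0.80, adjusted p = 0.0175).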

How the data were processed

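The authors aligned reads to mm10 with HISAT2 2.1.0 and called peaks with HOMER (version not given in the sources used here), per the submitters' processing notes and the file headers. The deposited signal is HOMER's normalized tag count per peak, per 10 M mapped tags, from peaks called in each library without input as control. HA peaks were called in factor style, Pol II and H3K27ac as stitched regions. One HA header (untreated replicate 3) names a tag directory not marked as filtered, unlike the others.

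From these, tags of peaks overlapping each gene plus 1 kb were summed, scaled between libraries by trimmed means (30% and 5% trimmed), and tested with limma 3.58.1 in R 4.3.3 on log2(tags + 1) over 5102 (HA), 11876 (Pol II) and 12041 (H3K27ac) genes with a peak in every library. The authors' values are not counts, so no count model was used. The precision is limited by 2 or 3 libraries per group. The tests were checked on simulated data with known changes in 200 genes for LPS in Nur77 cells. Changes of 1.5-fold were recovered for 0% of these genes for HA, 2.5% for Pol II and 88% for H3K27ac. At 2-fold the shares were 57.5, 73 and 98.5%. In this simulation most 1.5-fold changes thus did not pass for HA and Pol II. Far more genes than the 200 simulated were called in the Pol II data, 1445 higher and 1511 lower after LPS in Nur77 cells. The adjusted threshold was less strict there, so the simulated Pol II shares cannot be read as the recovery among members.

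Deviations of same-numbered libraries correlated at 0.38 to 0.64 for HA and 0.21 to 0.46 over all pairs of Pol II groups. For H3K27ac they correlated at -0.057 to 0.10. Replicate numbers of HA and Pol II were therefore read as pairs, and those of H3K27ac were not. The main fits used the group alone, and only the fits with the replicate block took account of replicate numbers. Named members were at most 8 called per direction and comparison by size of change, or the 3 smallest p where none passed, with the highest and lowest level of each role, the 8 highest for HA (1 is not reported here) and all isoforms. Members, gene lists and tests were chosen with earlier results of these data known. The alternatives tried were no scaling, a pseudocount of 8, no filter, inside-window parts, the span alone, tags per kb of region, the replicate block and leaving out libraries.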

Additional observations from a re-analysis of the deposited data

Results flagged for a closer look

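The 3 H3K27ac values are listed because the LPS effect differed between the GFP and Nur77 lines by the interaction test in limma. The interaction was 1.36 on the log2 scale at Atp5h (adjusted p = 0.000463), -0.86 at Ndufa7 (adjusted p = 0.00407) and -1.07 at Ndufa2 (adjusted p = 0.00357). Ndufa7 had 377 and 393 tags in untreated and 439 and 439 in LPS-treated GFP cells, and 754 and 757, then 460.0 and 489, in Nur77 cells. Ndufa2 had 402 and 455, then 635 and 653, in GFP cells, and 1103 and 1090.4, then 770.5 and 801, in Nur77 cells. All 3 genes share their H3K27ac regions with neighbours: Atp5h with Kctd2 and Mrpl58, Ndufa2 with Ik and Tmco6, and Ndufa7 with Kank3 and Rps28.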

How the results depend on the processing

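Of 1265 alternatives over 83 values of single members, 1008 kept direction and side of the threshold, 230 kept direction and no longer passed, and 27 reversed. All reversals came from counting tags per kb of region, inside the window or over the span alone. Per kb, Pol II changes after LPS became -0.78 at Uqcrh in GFP cells, and in Nur77 cells -0.18 at Ndufs1, -0.18 at Ndufc2, -0.20 at Cox7a2l, -0.37 at Uqcrh and -0.19 at Atp5md. For Ndufs1, the difference between lines after LPS became -0.15 inside the window and -0.18 per kb, and the interaction -0.38 and -0.60. The Atp5c1 interaction became 0.21 inside the window. For H3K27ac after LPS, per kb values were -0.16 at Cox6c in GFP cells, and -0.073 at Ndufb9, -0.028 at Ndufb2 and -0.32 at Cox7a2l in Nur77 cells. Ndufa7 became 0.86 inside and 0.84 per kb for LPS in Nur77 cells, -0.42 and -0.33 between untreated lines, and 0.74 and 0.69 for the interaction. Between LPS-treated lines, per kb values were -0.047 at Ndufa8, -0.26 at Ndufv2, 0.15 at Ndufb1, 0.086 at Ndufaf2 and 0.038 at Ndufs8. The Atp5h interaction over the span alone was -0.14. The cause of these reversals was not tested.

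The number of members passing for Pol II after LPS was 4 in GFP cells, with 1 unscaled, 0 per kb, 3 inside the window, 13 with the replicate block, 7 without Nur77 untreated replicate 1 with the block, and 0 to 5 with 1 library left out. In Nur77 cells it was 17, with 9 unscaled, 1 per kb, 12 inside the window, 27 with the replicate block, 11 in the added fit and 1 to 15 with 1 left out. Between LPS-treated lines it was 1, with 0 unscaled, inside, per kb and in the added fit, 2 with the replicate block and 0 in every leave-one-out fit. For HA it was 0, and 1 without both replicate 3 libraries with the block. For H3K27ac after LPS the counts were 41 and 43, and per kb 19 and 26, of which 14 and 17 were members that passed with summed tags. Between lines they were 13 and 17, and per kb 2 and 0, with 0 of the 2 among the 13. For the interaction the count was 3, and 0 per kb and inside the window. Between LPS-treated lines it was 11 with no filter. Leaving out 1 library gave 29 to 41, 31 to 44, 5 to 16, 9 to 13 and 3 to 4. The low end between untreated lines was 5 without Nur77 untreated replicate 1, 6 without its replicate 2 and 7 without each GFP untreated library. For H3K27ac, where numbers pair no samples, the replicate block gave 41, 43, 9, 13 and 3. Fits without replicate 3 or without Nur77 untreated replicate 1 with the block were added after seeing the data.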

Other observations

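Among regulators of mitochondrial genes, Ppargc1a, the coactivator PGC-1alpha, had less H3K27ac in Nur77 than in GFP cells, with differences of -2.21 untreated and -2.03 after LPS (limma, adjusted p = 6.32e-06 and 7.66e-06), over peaks that touch no other gene. Its Pol II differences were -3.39 and -2.62 (adjusted p = 0.19 and 0.141) and did not pass. Cyc1 had less Pol II in untreated Nur77 cells (-1.27, adjusted p = 0.0287), with -0.25 inside its window. For H3K27ac after LPS, 29% of all genes rose and 25.4% fell in GFP cells, and 30.2% and 28.3% in Nur77 cells. Beside these, 3 of 8 complex II genes rose and 1 fell in GFP cells, and 4 and 1 in Nur77 cells. Of 17 carrier genes, 8 rose and 1 fell, then 7 and 3. Of 35 assembly factors outside the name rule, 5 rose and 6 fell, then 9 and 5. Of 12 regulators, 5 rose and 0 fell, then 3 and 1. For HA after LPS, 0 of 1, 0 of 5, 0 of 11 and 0 of 4 tested genes of these lists passed.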
